A study of Mus musculus with 41 samples.

Results

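The genes described here are 10 transcription factors that set up the germ layers of the mouse embryo: Gata4, Gata6, Sox17 and Foxa2 (endoderm), T, Eomes, Mixl1 and Gsc (primitive streak), Hand1 (mesoderm and trophoblast) and Cdx2 (trophectoderm and posterior body). They were chosen by name, out of 21755 protein-coding genes on chromosomes 1 to 19 and X, and each was looked up in all 24 deposited CUT&Tag peak lists, which gave 240 combinations of gene and list. CUT&Tag uses an antibody to direct a transposase to a histone post-translational modification (hPTM), so that the DNA beside it is cut, tagged and sequenced. The 41 samples formed 24 pairings of cell type and hPTM, and each pairing had 1 peak list, made from 2 pooled samples in 17 pairings and from 1 sample in 7 (both MB lists, the 3 BMDM lists and the H3K27ac lists of mESC-ser and PIM). Of these lists, 8 were for lactylation of lysine 18 of histone H3 (H3K18la), 7 for H3K27me3, 5 for H3K27ac and 4 for H3K4me3. A promoter was called in a list when at least 1 bp lay in a peak within 2000 bp of an annotated transcription start site (TSS), and promoter coverage is the percentage of those promoter bases inside peaks.

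The stem cells were the E14 mouse embryonic stem cell line, grown in serum with LIF (mESC-ser) or in 2i with LIF (mESC-2i). The other cells came from adult female mice on a C57BL/6 background, and every sample carried the treatment label control. They were primary myoblasts (MB), myotubes differentiated from them in culture (MT), whole gastrocnemius muscle (GAS), bone marrow-derived macrophages grown with M-CSF (BMDM), macrophages sorted from calf muscle after ischemia (PIM), and adipocyte nuclei of epididymal fat (ADIPO). The adipocyte nuclei were captured from AdipoCre-NuTRAP mice, in which an adipocyte-driven Cre labels the nuclei. GAS holds the nuclei of every cell type of the muscle. H3K27me3 lists covered all cell types except ADIPO, and H3K4me3 lists mESC-ser, mESC-2i, GAS and PIM. H3K27ac lists covered mESC-ser, GAS, BMDM, PIM and ADIPO. The defining markers of the labelled cell type were called in H3K18la at 5 of 5 promoters in all cell types other than MB, where 2 of the 5 muscle markers were called (Myod1 and Des). Markers of other cell types were also called in H3K18la, among them adipocyte markers at 2 of 5 in MB and 3 of 5 in PIM, and macrophage markers at 2 of 5 in MT.

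In the embryo Cdx2 and Gata6 act as early as the blastocyst, in trophectoderm and primitive endoderm, and T, Eomes, Mixl1 and Gsc act as cells pass through the primitive streak. Pluripotent cells keep most such lineage programmes silent. H3K27me3 is deposited by Polycomb repressive complex 2 and is linked to silent developmental genes. H3K4me3 marks the CpG-rich promoters of active and poised genes, and a promoter that carries both is called bivalent, a state known from embryonic stem cells. H3K27ac and H3K18la are acylations linked to active promoters and enhancers. In bulk nuclei, peaks of 2 hPTMs at one promoter can come from the same nuclei or from different ones, and these cases cannot be told apart here.

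The promoters of 5 of the genes had an entry in the RefSeq promoter table of build GRCm38.p6, which holds 250 bases before and 50 bases after each start, and the CpG dinucleotides that the later comparison of CpG-dense bases turns on are in capitals. CG reads the same on both strands, and 94.7% of the 32619 windows of that table held at least 1, with a median of 7. The T window is chr17:8434173-8434472 on the plus strand, with 17 CpG. The Eomes window is chr9:118477939-118478238 on the plus strand, with 10 CpG. The Gsc window is chr12:104473187-104473486 on the minus strand, with 25 CpG, a number reached by 18.6% of all windows. The Cdx2 window is chr5:147307200-147307499 on the minus strand, with 18 CpG. The Foxa2 window is chr2:148045899-148046198 on the minus strand, the one of 3 starts with the most CpG, 23.
T: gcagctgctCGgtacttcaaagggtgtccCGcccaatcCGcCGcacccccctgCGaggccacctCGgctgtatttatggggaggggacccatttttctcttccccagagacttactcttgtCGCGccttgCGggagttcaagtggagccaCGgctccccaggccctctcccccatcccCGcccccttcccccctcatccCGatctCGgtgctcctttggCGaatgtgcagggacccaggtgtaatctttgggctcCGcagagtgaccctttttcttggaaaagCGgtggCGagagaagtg
Eomes: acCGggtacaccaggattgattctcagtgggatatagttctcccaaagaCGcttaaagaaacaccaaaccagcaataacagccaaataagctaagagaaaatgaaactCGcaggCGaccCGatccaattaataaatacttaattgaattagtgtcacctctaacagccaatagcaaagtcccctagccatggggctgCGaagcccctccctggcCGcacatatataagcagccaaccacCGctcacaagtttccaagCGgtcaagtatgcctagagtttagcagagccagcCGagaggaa
Gsc: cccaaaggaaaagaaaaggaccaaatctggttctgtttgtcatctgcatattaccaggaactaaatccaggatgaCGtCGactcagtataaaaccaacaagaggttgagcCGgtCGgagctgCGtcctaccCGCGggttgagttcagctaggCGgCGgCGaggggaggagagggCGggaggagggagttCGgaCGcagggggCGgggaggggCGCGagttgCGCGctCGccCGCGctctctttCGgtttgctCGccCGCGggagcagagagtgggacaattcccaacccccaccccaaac
Cdx2: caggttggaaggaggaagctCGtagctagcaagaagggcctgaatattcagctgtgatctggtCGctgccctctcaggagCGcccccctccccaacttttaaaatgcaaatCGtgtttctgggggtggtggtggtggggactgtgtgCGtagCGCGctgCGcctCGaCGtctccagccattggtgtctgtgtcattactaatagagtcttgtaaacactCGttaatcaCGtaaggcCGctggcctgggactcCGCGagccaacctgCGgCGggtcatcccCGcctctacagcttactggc
Foxa2: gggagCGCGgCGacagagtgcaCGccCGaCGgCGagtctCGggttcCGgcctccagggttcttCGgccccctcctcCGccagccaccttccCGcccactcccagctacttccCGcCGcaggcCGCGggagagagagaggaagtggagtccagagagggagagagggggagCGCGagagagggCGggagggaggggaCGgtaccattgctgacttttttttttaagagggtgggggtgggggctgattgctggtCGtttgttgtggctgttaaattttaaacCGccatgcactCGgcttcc

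Over these 5 windows the stem cell lists had H3K4me3 on all 300 bases in both media. In mESC-2i, H3K18la covered all 300 bases of the Eomes, Gsc and Cdx2 windows and none of the T and Foxa2 windows. In mESC-ser it covered all 300 bases of the Cdx2 and Foxa2 windows and none of the other 3. At the other Foxa2 starts in mESC-ser, H3K18la covered 26 of 300 bases (at the 5' end of the gene) and 300 of 300. H3K27me3 covered every base of the 5 windows in both media, except the Gsc window in mESC-2i, where it covered 0 of 300.

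The 10 genes were held in H3K27me3 almost throughout. Their promoters were called in 66 of 70 combinations of gene and H3K27me3 list (94.3%), against 21.7% over all protein-coding genes in the same lists. The 4 exceptions were Foxa2 and Eomes in MB, a list of 1 sample, and in MT, the cultured muscle cells. Of the 70 promoters, 61 (87.1%) had at least 50% of their bases in peaks and 40 (57.1%) had all of them, against 11.6% and 4.30% over all genes. In PIM every base of all 10 promoters lay in H3K27me3. The peaks were also broad and high within their lists: the widest promoter peak spanned a median of 17057 bp (range 2262 to 64758), and 52 of 66 (78.8%) held a maximum above that of 90% of the peaks of their list, against 29.4% of all promoters called in these lists. The widest was at Cdx2 in BMDM, where it reached 47919 bp past the 5' end of the gene.

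**Figure D1:**
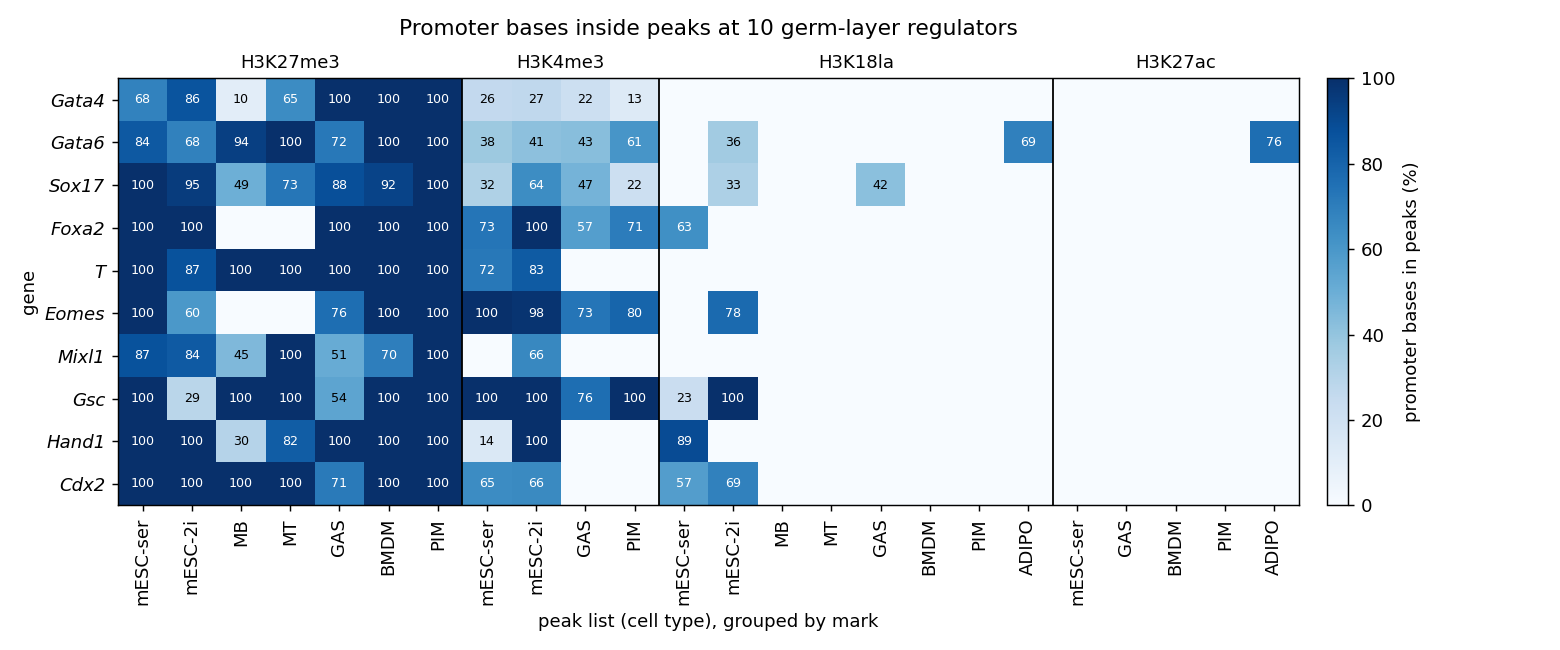
Promoter coverage of the 10 genes (rows) in the 24 peak lists (columns, grouped by hPTM), as the percentage of promoter bases inside peaks, with blank cells where none was. H3K27me3 fills its 7 columns apart from 4 cells, H3K4me3 fills 31 of 40 cells, and H3K18la fills 11 of 80, 9 of them in the 2 stem cell columns.

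Signal heights within a list set the hPTMs apart. The highest promoter peak of a gene stood above a median of 95.5% of the peaks of its list in H3K27me3 (66 promoters), 44.4% in H3K4me3 (31 promoters) and 35.9% in H3K18la (11 promoters). Over all promoters called in the same lists these medians were 78.6%, 70.7% and 56.7%. No H3K18la promoter peak of the 10 genes was above 90% of its list, where 11.7% of all called promoters were. In the stem cells, 8 of the 9 H3K18la promoters were below the median height of their list, as were 47.8% of all called promoters. The deposited signal is not scaled for sequencing depth, so heights are given as percentiles within a list and were not compared as signal between lists.

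**Figure D2:**
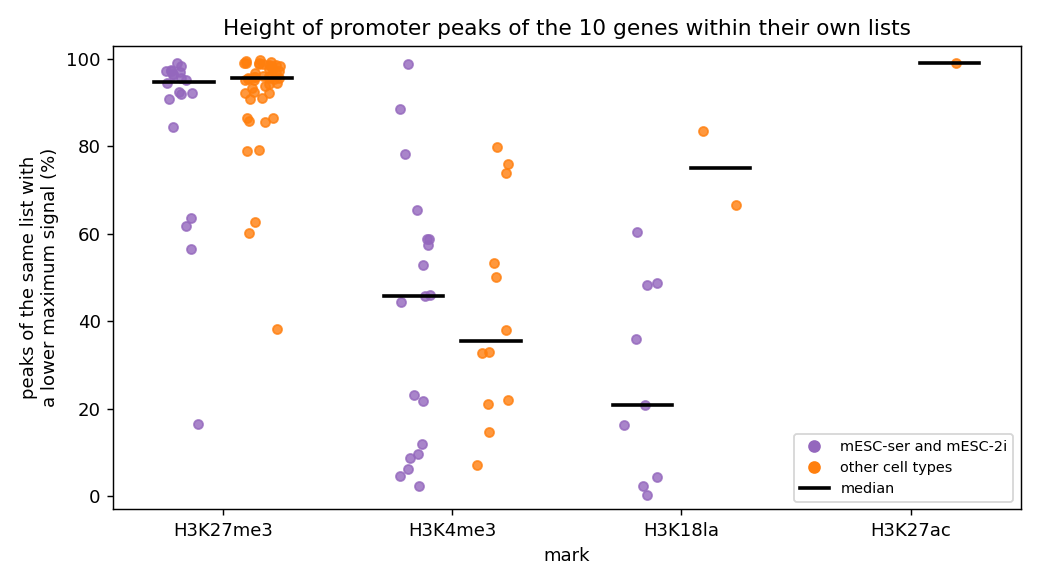
Height of the highest promoter peak of each called gene, as the percentage of peaks of the same list with a lower maximum signal (y axis), by hPTM (x axis). Each point is a gene in a list and bars are medians. H3K27me3 promoters have medians near 95%, and the H3K18la promoters of mESC-ser and mESC-2i have a median of 20.8%.

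H3K4me3 was called along with H3K27me3 at most of these promoters. It was called in 31 of 40 combinations (77.5%), against 58.5% of all protein-coding genes and 88.2% of those with a CpG-dense promoter. With the 5000 peaks of largest total signal per list the share was 30%, near the 24.9% of all genes, and with lists reduced to the bases of the smallest it was 32.5%, near 27.6%. A promoter was CpG-dense if it held 500 bp in a row with 55% or more G and C and with CpG at 0.75 or more of the number that its base composition predicts, and 9 of the 10 genes had one (all but Hand1). Each of the 31 promoters also had H3K27me3. Promoters with both hPTMs made up 13.4% of combinations over all genes in the same 4 cell types, and H3K4me3 without H3K27me3, which made up 45.1% over all genes, occurred in 0 of 40 combinations here. In the stem cells both hPTMs were called in 19 of 20 combinations (background 13.5%). The exception was Mixl1 in mESC-ser, a promoter with H3K27me3 over 87.1% of its bases and no H3K4me3 peak.

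In GAS and in PIM the 10 genes split into the same 6 and 4. Gata4, Gata6, Sox17, Foxa2, Eomes and Gsc had both H3K4me3 and H3K27me3 in each, 12 of 20 combinations (background 13.3%). T, Mixl1, Hand1 and Cdx2 had H3K27me3 alone in each, 8 of 20 (background 11.9%). The 4 endoderm factors were all in the first set, some with low H3K4me3 peaks. These were above 7.16% of the list for Sox17 and 14.7% for Gata4 in PIM, and 22.0% for Foxa2 in GAS. The Gata6 peak was above 76.0% in GAS and 79.9% in PIM. In GAS and PIM, 8 further endoderm genes had both hPTMs in 7 of 16 combinations (43.8%). For 12 further streak and mesoderm genes it was 14 of 24 (58.3%). T, the streak and notochord factor that begins mesoderm formation, had 100% of its promoter in H3K27me3 in GAS and PIM. Its H3K4me3 coverage was 72.1% in mESC-ser and 83.3% in mESC-2i, and 0 in GAS and PIM. GAS is whole muscle, PIM were sorted from calf muscle, and each is 1 pooled list, so the split has no replicate error. With the 5000 peaks of largest total signal kept in each list, both hPTMs were called together in 22.5% of the 40 combinations, against 2.41% over all genes. That share takes in the stem cells. In GAS and PIM only Gata6 kept an H3K4me3 promoter peak, at ranks 4284 and 2341 by total signal. The other genes of the first set were at rank 9673 or lower in GAS and 5984 or lower in PIM, so the split was not kept.

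H3K18la followed another course. It was called at 11 of 80 combinations (13.8%), against 31.8% over all protein-coding genes and 44.2% over those with CpG-dense promoters. In the stem cells it was called at 9 of 20 (45%), against 35.6% over all genes and 50.1% over those with CpG-dense promoters, and in the other 6 cell types at 2 of 60, against 30.5%. None of the 10 promoters had H3K18la in MB, MT, BMDM or PIM, where 11.1%, 34.8%, 18.5% and 37.8% of all genes had it, and the MB and BMDM lists each rest on 1 sample. All 3 hPTMs were called together in 9 of the 20 stem cell combinations (background 5.49%). Over the 40 combinations of the 4 cell types the share with all 3 was 25%, and it was 2.5% with the 5000 peaks of largest total signal per list and 0% with lists reduced to the bases of the smallest. The 9 were all of the stem cell promoters with H3K18la, of which 15.4% over all genes had the other 2 hPTMs, and 19 of the 20 combinations had both of these whether or not H3K18la was called. Without the mESC-2i list the H3K18la share was 8.57%, and with the 5000 peaks of largest total signal per list it was 3.75%, against 8.38% over all genes. Gata4, T and Mixl1 had no H3K18la promoter in any of the 8 lists. The nearest H3K18la peak to a Gata4 start was between 16570 and 74275 bp away across the lists, that to the T start between 19235 and 315468 bp, and that to a Mixl1 start between 6159 and 215602 bp. H3K27ac was called at 1 of 50 combinations (2.0%), against 43.2% over all genes.

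Among the endoderm factors, Gata6 stood out in ADIPO. Gata6, which directs primitive endoderm, lies at chr18:11052064-11085635 on the plus strand (mm10), and the processed transcript 1010001N08Rik on the other strand overlaps the gene or its promoter windows. Its promoter coverage by H3K18la was 68.8% in ADIPO, 36.0% in mESC-2i and 0 in the other 6 lists. In H3K27ac it was 76.1% in ADIPO and 0 in the other 4 lists. The ADIPO H3K27ac peak was 8536 bp wide, wider than 98.5% of its list, and ranked 275th of 23089 by total signal. The ADIPO H3K18la peak ranked 2115th of 28752, and 95.2% of the H3K18la bases at the promoter lay in H3K27ac. Its H3K27me3 coverage in the 7 cell types that have a list was between 68.4% and 100%, and no ADIPO list of H3K27me3 or H3K4me3 was used here. In ADIPO the mesothelial markers were called at 1 of 4 promoters (Wt1, in both H3K18la and H3K27ac), with Msln, Upk3b and Krt19 at 0. Fibroblast markers were called at 2 of 3 in H3K18la (Col1a1 and Dcn) and 2 of 3 in H3K27ac (Pdgfra and Dcn), and endothelial markers at 0 of 6. Muscle markers were called at 2 of 5 in H3K18la and 1 of 5 in H3K27ac, and macrophage markers at 1 of 5 in each (Spi1). The part of other cells in the Gata6 peaks was not tested.

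Sox17, an endoderm factor that also acts in vascular endothelium, had H3K18la at 32.7% of its promoter in mESC-2i, 42.1% in GAS and 0 elsewhere. It lies at chr1:4490931-4497354 on the minus strand, and the processed transcript Gm37587 overlaps the gene or its promoter windows. In GAS the higher of its 2 H3K18la peaks was above 66.6% of the list, and 97.8% of its H3K18la promoter bases lay in H3K27me3, 72.2% in H3K4me3 and 0 in H3K27ac. The endothelial markers were called in GAS at 6 of 6 promoters in H3K18la (coverage 21.0% to 70.5%) and at 2 of 6 in H3K27ac. Fibroblast markers were called there in H3K18la at 3 of 3 (23.3% to 75.6%) and macrophage markers at 2 of 5. Their part in the Sox17 call was not tested. Foxa2, a pioneer factor of endoderm and node, had H3K18la in mESC-ser alone, at 63.2% of its promoter. That peak spanned 24 to 3586 bp from the 5' end and was low, above 0.37% of its list. Foxa2 had no H3K18la peak at its promoter in mESC-2i, where H3K4me3 and H3K27me3 each covered all of it. Gata4, which acts in endoderm and heart and lies at chr14:63198922-63271692 on the minus strand, had H3K4me3 in all 4 lists at 12.6% to 26.8% of its 3 promoter windows, and no H3K18la.

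The streak genes Eomes and Gsc had the largest differences of the 10 in H3K27me3 coverage between the stem cell media. Eomes, a T-box factor needed for mesoderm and definitive endoderm, had H3K27me3 over 100% of its promoter in mESC-ser and 59.7% in mESC-2i. Its widest H3K27me3 peak spanned 16016 bp in mESC-ser and 3173 bp in mESC-2i. H3K18la covered 0% and 77.7% of the promoter. In mESC-ser the only H3K18la peak at the gene lay at its 3' end, 7762 to 12109 bp from the 5' end. H3K4me3 covered 100% and 98.1%, and in mESC-2i its maximum was above 98.9% of the list. Gm33460, an antisense transcript, overlaps Eomes or its promoter windows.

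Gsc, an organizer homeobox factor, showed the same direction in both hPTMs. H3K27me3 covered 100% of its promoter in mESC-ser, with a peak 19302 bp wide, and 28.7% in mESC-2i, with a peak 2702 bp wide that began 853 bp after the 5' end. H3K18la covered 22.8% in mESC-ser and 100% in mESC-2i, where its peak was 7902 bp wide and ended 3252 bp after the 5' end. The H3K18la peak was low in mESC-ser, above 2.24% of the list, and above 48.8% in mESC-2i. H3K4me3 covered 100% in both. Of the H3K18la bases at the Gsc promoter, 100% lay in H3K27me3 in mESC-ser and 28.7% in mESC-2i, so that upstream of the start in mESC-2i the promoter had H3K4me3 and H3K18la without an H3K27me3 peak. Of the 10 genes, Gsc and Eomes in mESC-2i were the only cases, among the 7 cell types with both lists, in which H3K18la covered more of a promoter than H3K27me3. Between the media, Gata6 and Sox17 had H3K18la in mESC-2i alone. Foxa2 and Hand1 had it in mESC-ser alone, with H3K27me3 at 100% in both. Over all genes H3K18la was called at 33.4% of promoters in mESC-ser and 37.8% in mESC-2i, from lists covering 82.4 and 128.1 Mb. The Gsc promoter is 84.2% CpG-dense, and Gm10000, annotated as a bidirectional promoter lncRNA, overlaps the gene or this promoter. Mixl1, a homeobox factor of the streak at chr1:180693043-180697034 on the minus strand, had H3K4me3 in mESC-2i alone (66.4% of its promoter).

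**Figure D3:**
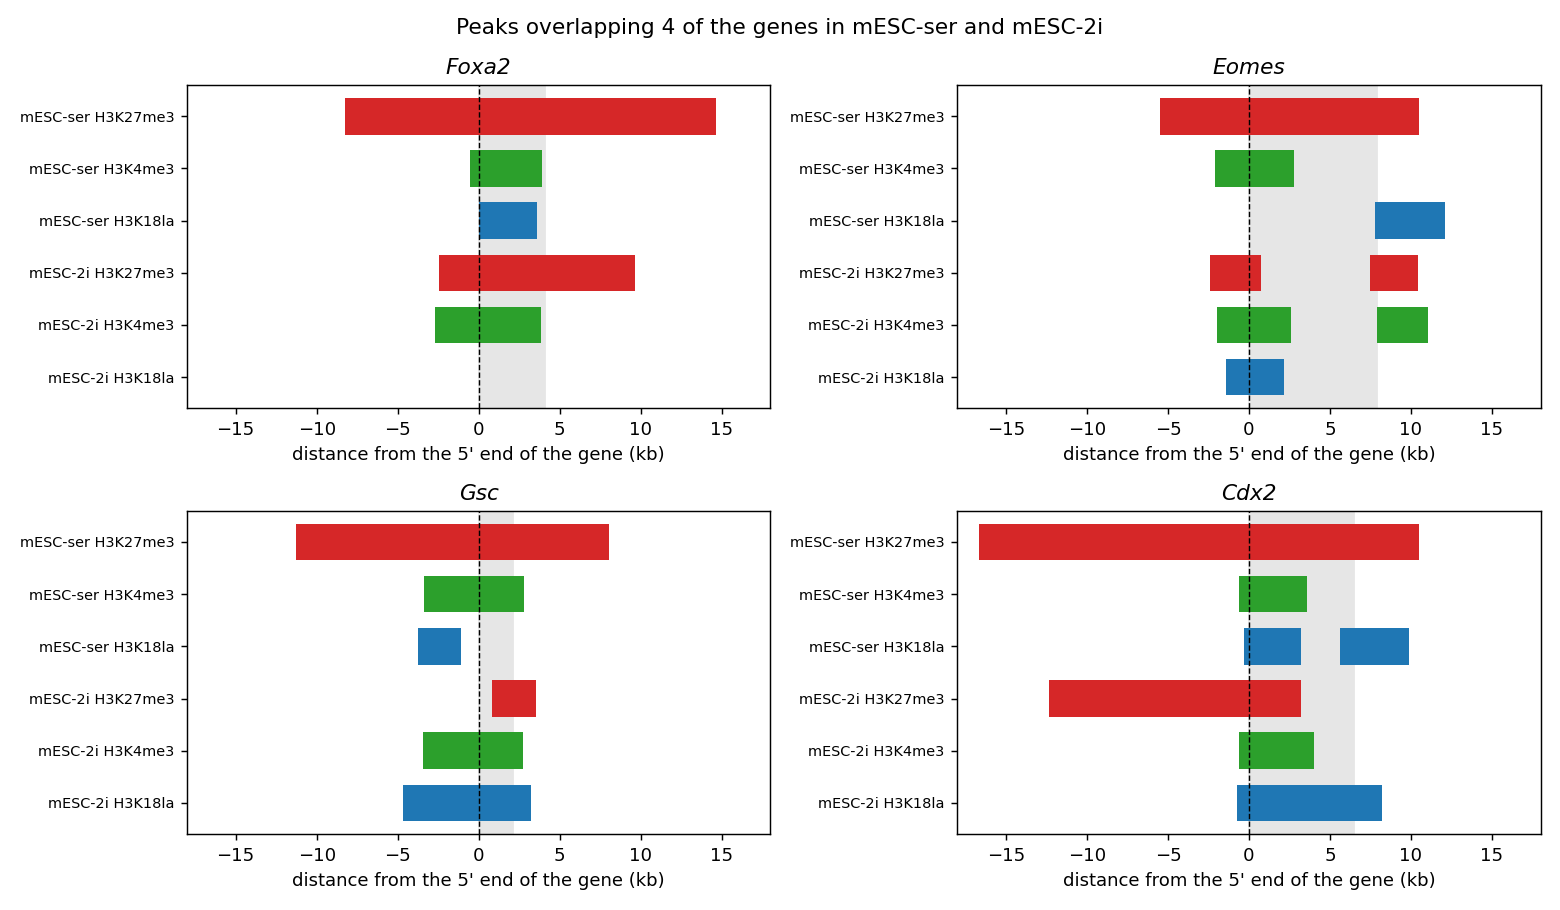
Peaks that overlap Foxa2, Eomes, Gsc and Cdx2 in mESC-ser and mESC-2i, drawn by distance in kb from the 5' end of the gene in the direction of transcription (dashed line), with the gene in grey. Bars are H3K27me3 (red), H3K4me3 (green) and H3K18la (blue) peaks. The H3K27me3 bars of Eomes and Gsc are shorter in mESC-2i (3173 and 2702 bp for the promoter peaks) than in mESC-ser (16016 and 19302 bp).

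Across all 10 genes the peaks differed in shape between the media. The widest H3K27me3 promoter peak was narrower in mESC-2i at 8 of 10 genes, against 43.3% of all genes called in both, with medians of 16530 bp in mESC-ser and 9006 bp in mESC-2i, although over all peaks of the lists the median width was larger in mESC-2i (4179 bp against 2296 bp). H3K27me3 coverage was higher in mESC-ser at 6 genes, equal at 3 and higher in mESC-2i at 1 (Gata4). Over all genes called in either medium, it was higher in mESC-ser at 52.7%. H3K4me3 coverage was higher in mESC-2i at 8 genes, equal at 1 (Gsc) and higher in mESC-ser at 1 (Eomes). Over all genes, it was higher in mESC-2i at 40.4%. The mESC-ser H3K4me3 list had 11002 peaks and that of mESC-2i 19362, and 48.8% and 61.8% of all genes had an H3K4me3 promoter in them. With 1 pooled list per medium these differences have no replicate check.

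Hand1, a basic helix-loop-helix factor of trophoblast and mesoderm, and Cdx2, the trophectoderm homeobox factor, both had H3K4me3 in the stem cells and none in GAS or PIM. They lie at chr11:57828705-57832818 and chr5:147300805-147307270, each on the minus strand. Hand1 had H3K18la at 89.2% of its promoter in mESC-ser, the tallest of the stem cell H3K18la peaks within its list (above 60.3%), and H3K4me3 at 14.3%. In mESC-2i it had H3K4me3 at 100% and no H3K18la. Cdx2 had H3K18la at 57.4% in mESC-ser and 68.6% in mESC-2i, and H3K4me3 at 64.6% and 65.6%. Its H3K18la peak was low in mESC-ser, above 4.34% of the list, and above 48.3% in mESC-2i. Its H3K27me3 coverage was 100% in all lists but GAS, where it was 71.4%.

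CpG-dense bases carried the hPTMs unevenly in the 9 genes that have them. With the bases of these 9 promoters pooled, H3K18la in mESC-2i covered 61.2% of CpG-dense bases and 15.2% of the others, and its coverage was higher on the dense bases at 4 genes and lower at 0. Over all 11906 genes with dense bases it covered 49.0% and 20.05%, and was higher on the dense bases at 41.1% of genes and lower at 5.12%. In mESC-ser it covered 22.7% and 6.73%, higher on the dense bases at 2 genes and lower at 1 (Gsc), against 38.9% and 14.5% of bases over all genes. There it was higher on the dense bases at 37.1% of all genes and lower at 6.58%. H3K4me3 in mESC-2i covered 97.0% and 47.7%, against 90.7% and 17.4%. H3K27me3 covered 100% of dense and 84.8% of other bases in mESC-ser, higher on the dense bases at 3 genes and lower at 0, and 82.7% and 79.1% in mESC-2i, higher at 6 and lower at 1. In GAS the order for H3K27me3 was the opposite, with 64.8% of dense bases and 90.4% of the others covered, lower on the dense bases at 6 genes and higher at 0. Over all genes it covered 8.49% and 7.58% there, lower on the dense bases at 14.1% of genes and higher at 6.17%. There the H3K27me3 peaks flanked a gap near the start of Mixl1 (1957 bp), Gsc (1842 bp), Cdx2 (1144 bp) and Eomes (1111 bp). At Gsc and Eomes H3K4me3 peaks reached into the gap, and at Mixl1 and Cdx2 no H3K4me3 was called. In PIM, H3K27me3 covered 100% of both kinds of base.

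H3K27me3 and H3K18la coverage were compared within the 7 cell types that have both lists, with a two-sided exact permutation test that flips the sign of the difference in each cell type, and with Benjamini-Hochberg adjustment over 17746 genes. H3K27me3 coverage was above H3K18la coverage in all 7 cell types at 7 of the 10 genes, which 5.11% of all genes tested reached. The number was 5 with 1000 bp on each side of a TSS and 4 with gene bodies in place of promoters. It was 4 with the 5000 peaks of largest total signal per list and 0 with every list reduced to the bases of the smallest. The mean difference was positive at all 10, from 51.2 percentage points at Eomes (SD 54.5 over 7 cell types) to 98.2 at T (SD 4.89). The median over the 10 genes was 75.2 points, against -4.23 over all genes tested. The exact test passed the adjusted threshold of 0.05 at 0 of the 17746 genes. The test takes the 7 cell types as independent, although they come from 3 lineages and include 2 media of one stem cell line. The smallest p that 7 cell types allow in this exact test is 0.0156, and the smallest adjusted p was 0.191. With adjustment over 17746 genes, no gene could pass unless a large part of the genes reached that smallest p. The result of 0 genes therefore says little about any single gene. At an unadjusted p under 0.05, 1438 genes (8.1%) had higher H3K27me3 and 1546 (8.71%) higher H3K18la. Of the 10 genes, 8 had such a p, all with higher H3K27me3. The adjusted p of the 10 genes lay between 0.191 and 0.309 (exact sign-flip permutation). Foxa2 (exact p = 0.0625) and Eomes (exact p = 0.125) had no unadjusted p under 0.05, and their MB and MT values were 0 in both hPTMs.

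**Figure D4:**
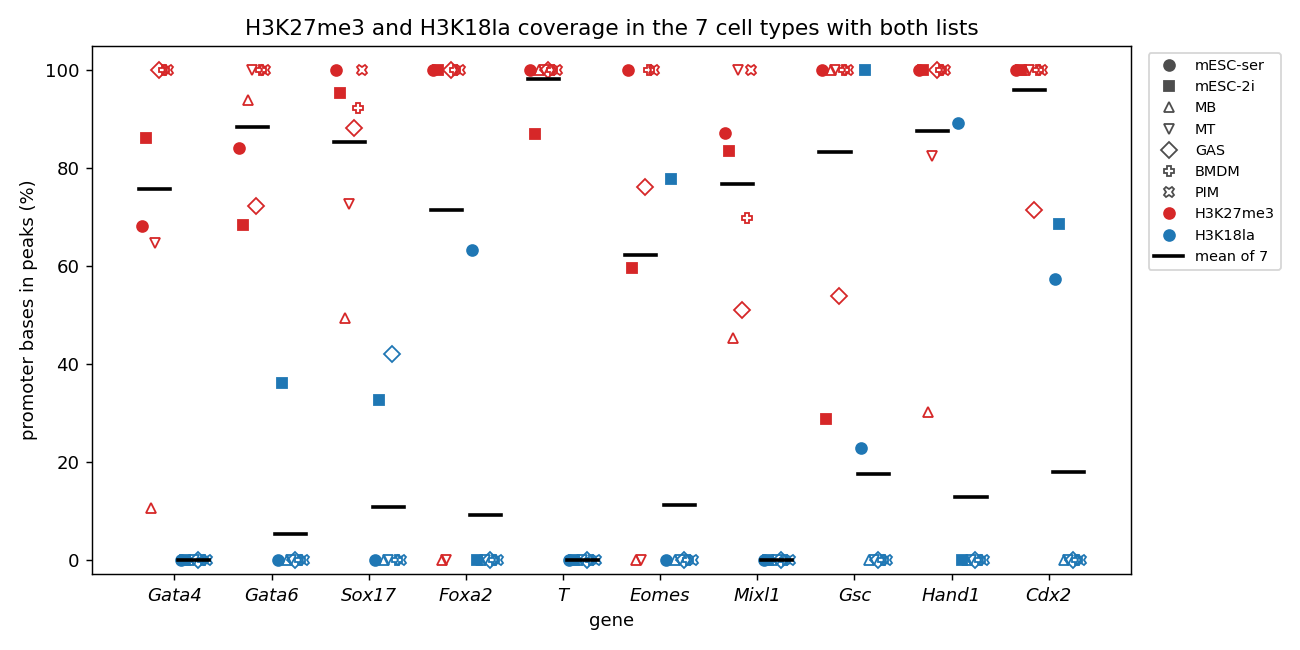
Promoter coverage by H3K27me3 (red) and H3K18la (blue) at each gene in the 7 cell types with both lists, in percent of promoter bases. Filled symbols are mESC-ser and mESC-2i, open symbols the others, and bars are means of 7. Red points lie above blue ones except at Eomes and Gsc in mESC-2i, with ties at 0 for Foxa2 and Eomes in MB and MT.

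Further genes of the same programmes were counted by group, with no test against the 10 factors. Over 48 further germ-layer genes, H3K27me3 was called in 72 of 96 stem cell combinations (75%, against 24.8% over all genes) and in 182 of 240 in the other cell types (75.8%, against 20.5%). H3K18la was called in 40 of 96 (41.7%), near the 35.6% of all genes, and in 23 of 288 outside the stem cells (7.99%), against 30.5%. The bivalent pair was called in 61 of 96 stem cell combinations (63.5%, against 13.5%). The 10 neuroectoderm factors had H3K27me3 in 20 of 20 and 46 of 50 combinations, the same counts as the 10 factors above, with H3K18la in 5 of 20 and 1 of 60. Otx2 and Pax6, neural homeobox factors, each had H3K27me3 in 7 of 7 lists and H3K18la in both stem cell lists. The 8 further endoderm genes had H3K18la in 7 of 16 stem cell combinations (43.8%, near the share of all genes) and in 3 of 48 others (6.25%, against 30.5%). The 3 others were Hhex in PIM and Sox7 in GAS and ADIPO. The 12 streak and mesoderm genes had it in 7 of 24 and 3 of 72. Tbx6, a presomitic mesoderm factor, had H3K18la in 4 of 8 lists and H3K27me3 in 0 of 7.

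The 7 trophectoderm genes had H3K18la in 10 of 42 combinations outside the stem cells (23.8%), against the 30.5% of all genes. Tead4, a partner of YAP, had it in 6 of 8 lists, and Gata2 and Gata3 in 4 each. The 11 signalling genes, ligands and cofactors of the Nodal, BMP, FGF and WNT pathways, had H3K18la in 15 of 22 stem cell combinations (68.2%, against 35.6% over all genes) and 6 of 66 others (9.09%, against 30.5%). Their H3K4me3 was called in 22 of 22 stem cell combinations, against 55.3% over all genes and 86.4% over those with CpG-dense promoters. Bmp4, Foxh1, a Nodal pathway transcription factor, and Nodal were called in 4, 4 and 3 of the 8 H3K18la lists.

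The protein-coding genes, over 100 kb away or on another chromosome, whose promoter coverage over the 24 lists was most like that of a member were found by Pearson's r, which is a description over lists that share cell types and hPTMs. The most alike were Galr1 for T (r = 1.00), Evx1 for Cdx2 (0.99), March4 for Mixl1 (0.98), Mkx for Foxa2 (0.98) and Sp5 for Gsc (0.98). The others were Sprn for Gata4 (0.97), Pcdh19 for Eomes (0.96), Spon1 for Gata6 (0.95), Sema5b for Sox17 (0.95) and Pak6 for Hand1 (0.95).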

How the data were processed

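CUT&Tag libraries of 41 samples were made by the authors into 24 peak lists, 17 from 2 pooled samples and 7 from 1 sample. Per the labels and methods, reads were trimmed with Trim Galore 0.6.6 and aligned to mm10 with Bowtie2 2.4.4, coverage was made with bedtools 2.30 and peaks were called with SEACR 1.3 in stringent mode, keeping the top 1% of regions. The deposited signal columns give the total and the maximum coverage of each peak and are not scaled for depth, so they were ranked within a list. Stem cell lists with no medium in their names count as mESC-ser, as in the sample descriptions. Read depth was not analysed here, since the lists give no read counts. Lists held 11002 to 36813 peaks. Peaks were set against GENCODE M21 promoters (2000 bp on each side of every TSS of 21755 protein-coding genes, overlap of 1 bp) with Python 3.11.15, pandas 2.3.3 and numpy 2.4.6. Overlap and the sign-flip test were tested on simulated data. All 10 genes are named. Further genes were named as up to 3 per list, those with H3K18la promoters in the most lists. The members and gene lists were chosen with earlier results of these data known. No replicate error can be had from 1 list per group, and tests ran over cell types.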

Additional observations from a re-analysis of the deposited data

How the results depend on the processing

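No paired analysis was possible because the lists hold no replicate values, so replicate numbers could not be matched (the sign-flip test pairs 2 hPTMs within a cell type). With the 5000 peaks of largest total signal per list, the 10 promoters were called in 3.75% of H3K18la, 30% of H3K4me3 and 80% of H3K27me3 combinations, both H3K4me3 and H3K27me3 in 22.5%, all 3 hPTMs in 2.5%, and H3K27me3 was above H3K18la in every cell type at 4 genes. Over all genes the first 5 shares were 8.38%, 24.9%, 12.3%, 2.41% and 0.495%. With every list reduced to the bases of the smallest (22.6 Mb), the values were 1.25%, 32.5%, 64.3%, 15%, 0% and 0 genes, against 6.22%, 27.6%, 4.13%, 1.10% and 0.101% over all genes. The H3K4me3 share of the 10 genes was thus near that of all genes in both settings. Fewer bases were kept in both by construction. With gene bodies in place of promoters, H3K27me3 was above H3K18la in every cell type at 4 genes, and with a 1000-bp window at 5. Leaving out each cell type in turn gave 8.57% (without mESC-2i) to 15.7% for H3K18la, 0% (without ADIPO) to 2.5% for H3K27ac, 70% to 83.3% for H3K4me3 and for both H3K4me3 and H3K27me3, and 93.3% to 96.7% for H3K27me3. All 3 hPTMs ranged from 16.7% (without mESC-2i) to 33.3%. Among the recomputed gene differences between H3K27me3 and H3K18la, that of Mixl1 had no value with reduced lists, where neither hPTM was left at its promoter, and the other 129 were above 0, from 26.7 to 100 percentage points, and 0 genes passed after adjustment in any setting (smallest adjusted p 0.17). TSS choice, a 1000-bp window and a 500-bp overlap kept every share within 1.5 times. Which peaks a shallow list misses cannot be read from the lists, so an absent call is not absence of the hPTM.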
